A study of Mus musculus with 2 samples.

Results

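Committed myoblasts that had begun to express Myod1 but not yet much Myog were taken from inter-limb somites of mouse embryos at embryonic day (E) 11.5. The members were all cells with at least 2 unique molecular identifiers (UMIs, each counting 1 captured transcript) of Myod1, under 5 of Myog, under 10 of Acta1 and 0 of Sox2. They numbered 269 of the 9595 E11.5 cells that passed the cell filter, which is 2.80% (exact binomial 95% interval 2.48 to 3.15). Over both libraries of the study, 19446 cells passed the filter. The study made 1 library from wild type C57BL/6 embryos of each of 2 ages, E9.5 and E11.5, each from the pooled somites of 3 embryos without treatment. With 1 library there are no replicates, so cells are not tested against each other. All intervals cover counting error only, and ratios are descriptions of this library.

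Myod1 encodes a basic helix-loop-helix transcription factor that commits somite cells to the muscle lineage by binding E-boxes, short DNA sites of the form CANNTG. Pax3 and Pax7 act upstream in muscle progenitors that divide, Myf5 is a sister factor of Myod1 that often comes first, and Myog drives the later step in which cells leave the cell cycle and make contractile proteins. Between these steps lies a window in which a cell holds Myod1 but has not started terminal differentiation. Inhibitors of helix-loop-helix factors, Notch signals and cell cycle regulators are known to act in this window.

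Members were compared with 333 Pax7 cells without a Myod1 UMI, the step before, and with 356 cells holding at least 20 Myog UMIs, the step after, here called Myog-high cells. For each gene the UMIs of all cells in a class were added up and expressed per 1000000 UMIs of that class (UPM). A gene was compared where both classes together held at least 100 UMIs of it, and a 2-fold ratio was used to count genes. The rule chose cells by their Myod1, Myog, Acta1 and Sox2 UMIs, and the comparators by Pax7, Myod1 and Myog, so the values of these genes are given without any reading.

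The sequences that the gene with the highest ratio to Pax7 cells carries are shown first, since this transcript is named only by a model number. Gm28653 (ENSMUSG00000099906) is annotated at chr1:20669882-20684298 on the plus strand of GRCm38, and 2 miRNA hairpins of muscle, miR-206 and miR-133b, lie within this span on the same strand. Mature miRNAs were not measured in these libraries. Their sequences are those of RefSeq for GRCm38.p6, with the seed (bases 2 to 8) in capitals.
mmu-miR-206-3p: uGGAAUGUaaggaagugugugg
mmu-miR-133b-3p: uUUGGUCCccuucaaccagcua
The first lies at chr1:20679055-20679076 and the second at chr1:20682834-20682855, and their seeds GGAAUGU and UUGGUCC differ.

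Promoters are shown for 3 genes among the 15 with the highest ratio to Pax7 cells, because they hold the E-box letters CAGCTG, which read the same on both strands. The 250 bases before the RefSeq start of transcription were searched. A promoter was available here for 8 of the 15 genes and 3 of these 8 (37.5%) held the letters, while 3979 of all 27025 genes with a promoter (14.7%) did. In the 15 genes with the lowest ratio it was 1 of 10. The stretch around the motif is printed 5′ to 3′ in the direction of the gene, with the motif in capitals.
Myl1 (chr1:66945228-66945306, minus strand): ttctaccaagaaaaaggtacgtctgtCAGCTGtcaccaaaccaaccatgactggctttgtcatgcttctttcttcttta
Ccdc141 (chr2:77170804-77170885, minus strand): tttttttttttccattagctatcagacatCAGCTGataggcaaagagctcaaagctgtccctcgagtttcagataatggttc
Ppp1r14c (chr10:3366094-3366149, plus strand): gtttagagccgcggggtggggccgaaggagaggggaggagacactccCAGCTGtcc
The motif starts 224 bases before the start in Myl1, 221 bases before it in Ccdc141 and 9 bases before it in Ppp1r14c. In the GENCODE annotation Ppp1r14c begins at position 3366057, so that there the letters lie within the gene. A second E-box, CAGGTG or its complement CACCTG, was in 1 of the 8 promoters (Tuba4a) and in 19.4% of all. A match of letters is not a bound site, and with 8 promoters the shares are a description.

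The E11.5 library held 10167 barcodes with 136655763 UMIs, of which 9595 cells were kept with a median of 12479 UMIs. Members were deeper than the library as a whole, with a median of 16642 UMIs and 4103 genes per cell, close to the 16043 UMIs of Pax7 cells and below the 18545 of Myog-high cells. Scrublet, a doublet caller, marked 22 members (8.18%), 32 Pax7 cells (9.61%) and 27 Myog-high cells (7.58%), against 3.67% of all kept cells. The libraries shared 30 barcodes. No E9.5 cell met the rule (0 of 9851, which allows a share of up to 0.0305%).

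Myod1 counts were low in most members. They held 2 UMIs in 93 cells, 3 or 4 in 107, 5 to 9 in 62 and 10 or more in 7, with 14 as the highest. Myog was at 0 in 150 members and at 1 to 4 in 119, and Acta1, an actin of the sarcomere, was at 0 in 247. The rule therefore cuts through a continuous spread rather than a gap, as the plot of Myod1 against Myog shows.

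**Figure D1:**
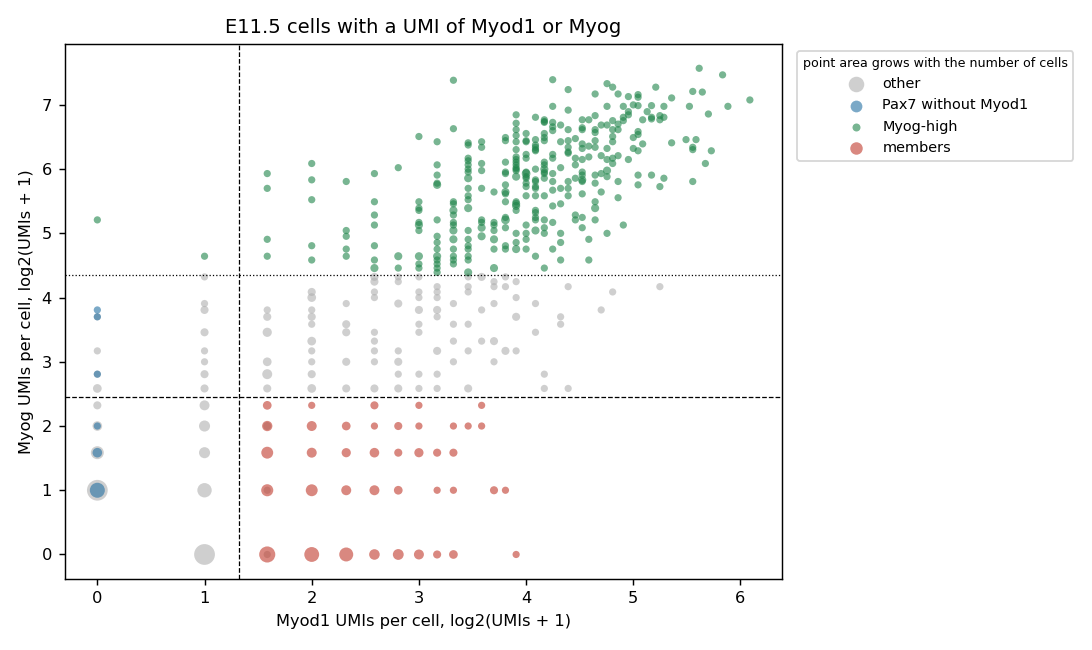
Myod1 UMIs per cell (horizontal axis, log2 of UMIs plus 1) against Myog UMIs per cell (vertical axis, same scale) for E11.5 cells with a UMI of either gene, with the thresholds at 2 Myod1 and 5 Myog UMIs dashed and that at 20 Myog UMIs dotted. The 269 members (red) fill the lower right field and border directly on cells just outside the rule, with no gap at any threshold.

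Cells just inside and just outside the thresholds were set side by side. The 93 members with 2 Myod1 UMIs had a median of 16327 UMIs and 102 UPM of Cdh15, and the 210 cells with 1 Myod1 UMI that met the rest of the rule had 15091 UMIs and 73.4 UPM of Cdh15. At the Myog border, the 31 members with 3 or 4 Myog UMIs had 148 UPM of Cdh15 and the 24 cells with 5 or 6 had 134. A Sox2 UMI alone kept out 1 cell, and Acta1 alone kept out 3 cells, which had a median of 1996 UMIs.

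The label of the cells was checked with Cdh15, the gene of M-cadherin, the adhesion molecule of myoblasts. A Cdh15 UMI was found in 205 of 269 members, or 76.2% (70.7 to 81.2). In endothelial cells, taken as those with at least 2 Cdh5 UMIs, it was found in 3 of 70 (4.29%), and in neural cells, with at least 2 Sox2 UMIs, in 11 of 351 (3.13%), at median depths of 19089.5 and 13718 UMIs. Thinned to 5000 UMIs per cell, the share in members was 39.1%, in Pax7 cells 30.2% and in Myog-high cells 76.8%. Cdh15 stood at 105 UPM in members, 83.4 in Pax7 cells and 292 in Myog-high cells. Its share in members was thus far above the background, and its level was within 2-fold of that in Pax7 cells. A narrower class of Pax7 cells, without Sox2 and with Myf5 UMIs, is described below. In it 80.3% of cells held a Cdh15 UMI, and the log2 ratio of members to it was -0.21. For members without a Myog UMI the log2 ratio to all Pax7 cells was 0.08. Cdh15 thus did not set members apart from Pax7 cells without Myod1. The Myod1 threshold alone also let in cells of other types: 2 of 70 endothelial cells had at least 2 Myod1 UMIs (2.86%, interval 0.348 to 9.94), 1 of them a member, and 6 of 351 neural cells (1.71%, interval 0.630 to 3.68), none of them a member. These shares are for the Myod1 threshold alone, while the 2.80% of kept cells that were members passed the whole rule. The 2 are therefore not alike. Neural cells are barred from members by their Sox2 UMIs. How many members are of another type was not tested.

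Members were close to the Pax7 cells over the whole transcriptome. Of 8072 genes compared, 10 (0.124%) were at least 2-fold higher in members, 2 of them Myod1 and Myog of the rule, and 84 (1.04%) were at least 2-fold lower, among them Pax7 and Sox2 of the rule. The median log2 ratio over all genes was -0.07. Against Myog-high cells 627 of 8412 genes (7.45%) were at least 2-fold higher and 810 (9.63%) at least 2-fold lower, with a median log2 ratio of 0.13. These shares of all genes are the background of each count by gene list below. Both comparisons use the same members, and the plot of all genes shows the narrow spread of the first and the long lower tail of the second.

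**Figure D2:**
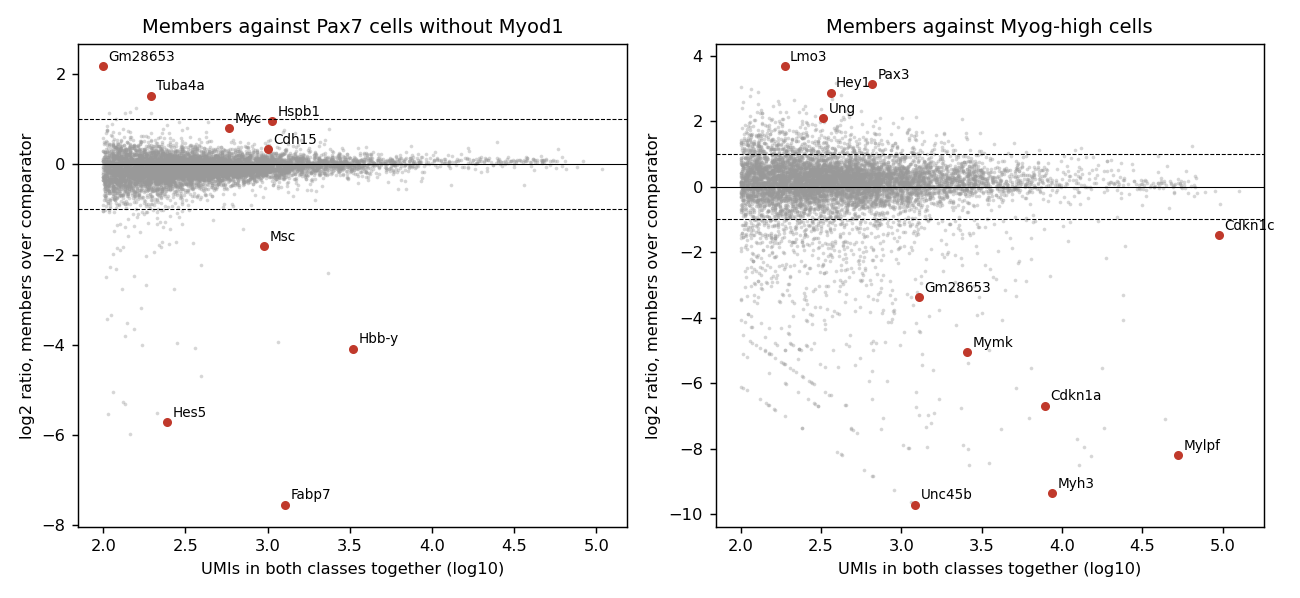
The log2 ratio of members over the comparator (vertical axis) against the number of UMIs in both classes together (horizontal axis, log10) for each gene with at least 100 UMIs, leaving out the 5 genes used to choose cells. Dashed lines mark 2-fold; in the left panel nearly all genes lie between them, and in the right panel genes of the sarcomere such as Myh3 and Mylpf form the lower tail.

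The 8 genes at least 2-fold higher than in Pax7 cells that were not part of the rule rested on few UMIs. Gm28653, which spans miR-206 and miR-133b, led them with 80 UMIs in members and 20 in Pax7 cells. Its levels were 15.9 and 3.50 UPM and its log2 ratio 2.18 (interval 1.46 to 2.97), which was 1.23 for members without a Myog UMI. It was found in 14.9% of members and 3.90% of Pax7 cells. Tuba4a, a tubulin gene, stood at 27.6 against 9.64 UPM (log2 ratio 1.52, interval 1.06 to 2.00) and was found in 33.8% against 12.0% of cells. Tuba4a overlaps Stk16 on the other strand in the annotation, and how strand was used in counting is not given in the sources used here. Stk16 itself stood at 64.8 and 69.0 UPM. Thinned to 5000 UMIs per cell, Gm28653 was found in 6.39% of members and 2.15% of Pax7 cells and Tuba4a in 10.5% and 2.46%.

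Ccdc141, a gene for a coiled-coil protein, was at 21.3 and 8.94 UPM, with a log2 ratio of 1.25. Ppp1r14c, an inhibitor of a protein phosphatase, was at 19.3 and 8.59 UPM (1.17), and Ndst4, an enzyme that sulfates heparan chains, at 14.3 and 6.48 UPM (1.14). Adcyap1, the gene of the neuropeptide PACAP, was at 25.4 and 11.6 UPM (1.14). Arhgef15, a gene known from endothelium, was at 17.7 and 8.06 UPM (1.13), and Myl1, a myosin light chain of fast muscle, at 15.1 and 7.53 UPM (1.00). In each of these 6 genes no single member held over 11.8% of the UMIs, so no level came from 1 cell. Arhgef15 was found in 23.4% of members but in 75.7% of endothelial cells, while Adcyap1 and Ndst4 had no UMI in the 70 endothelial cells.

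The next genes in rank lay just under 2-fold. Hspb1, a small heat shock protein abundant in muscle, stood at 134 against 69.2 UPM and was found in 78.1% of members and 48.9% of Pax7 cells. Sgcd, the delta subunit of the sarcoglycan complex that anchors muscle membranes, stood at 36.0 against 18.7 UPM. Zfp703, a zinc finger repressor, stood at 54.1 against 28.4 UPM and was found in 51.3% of members and 26.7% of Pax7 cells. Tmem255a, Car3, Cdk5r1 and Wisp1 completed the 15 highest, with log2 ratios from 0.80 to 0.89. Car3 is carbonic anhydrase 3, which is abundant in slow muscle fibers. In Car3 and Tmem255a a single member held 12.6% and 14.3% of the UMIs.

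Genes known from neural cells were among those lowest against Pax7 cells. Of the fixed lists, 3 of 4 neural tube markers and 2 of 7 neuron markers compared were at least 2-fold lower. The share of all genes was 1.04%. Fabp7, a fatty acid binding protein of radial glia, stood at 1.19 UPM in members and 224 in Pax7 cells and was found in 16.8% of the latter. Hes5, Ednrb, Nrarp, Wnt4 and Gm3764 were lower by log2 ratios between -5.98 and -4.01. Wnt7b, a ligand of the dorsal neural tube, had 0 UMIs in members and 136 in Pax7 cells, which makes it at least 39.9-fold lower against a floor of 3 counts over the class. Pax7 is also a gene of the dorsal neural tube, and 42 of the 333 Pax7 cells (12.6%) held a Sox2 UMI, which the rule barred from members. The 12 neural tube markers summed to 360 UPM in Pax7 cells and to 13.1 UPM in members, with 47 Pax7 cells (14.1%) and 2 members (0.743%) holding 5 or more UMIs of them, and 4 of the 12 were at 0 in members. The embryonic haemoglobin genes Hbb-y, Hbb-bh1, Hba-x and Hba-a1 were also among the 15 lowest, and 1 Pax7 cell held 92.8% to 96.0% of the UMIs of each.

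A narrower comparator without the neural cells was therefore used beside the first, chosen after the data were seen. It held the 183 Pax7 cells with no Sox2 and no Myod1 UMI and at least 1 UMI of Myf5, so that the level of Myf5 in it is set by the choice, and its neural tube markers summed to 20.4 UPM. Of 7262 genes, 13 (0.179%), Myod1 included, were at least 2-fold higher in members and 24 (0.330%) at least 2-fold lower. Tuba4a (log2 ratio 1.25) and Ppp1r14c (1.05) were still over 2-fold, while Ccdc141 (0.98) and Myl1 (0.57) lay under the line. Adcyap1, Ndst4 and Arhgef15 were not among the 13 either. Gm28653, at 15.9 against 3.20 UPM, had too few UMIs in this comparison to pass the minimum. Gadd45g, a growth arrest gene, was at 43.9 against 13.4 UPM (1.72) where all Pax7 cells had 44.7 UPM, and a single comparator cell held 19.6% of the lower count. Bmpr1b, a receptor for bone morphogenetic proteins, was at 16.5 against 6.11 UPM (1.43), and Dmrt2, a transcription factor of the dermomyotome, at 49.5 against 19.5 UPM (1.35). The matrix genes Col5a2, of a fibrillar collagen, and Postn, periostin, stood at 20.7 against 7.85 UPM (1.40) and at 111 against 47.1 UPM (1.24). Cdh15 was at 121 UPM in this class and found in 46.4% of its thinned cells, against 39.1% of members.

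Msc was the lowest gene of the muscle lineage in this comparison. Msc encodes musculin, a helix-loop-helix repressor that can occupy E-boxes in place of Myod1. It stood at 38.0 UPM in members and 172 UPM in the narrower Pax7 class, a log2 ratio of -2.18 (interval -2.42 to -1.94). All Pax7 cells had 133 UPM, a ratio of -1.81, which was -1.35 for members without a Myog UMI and -1.31 with members of 1 Myod1 UMI added. It was found in 20.4% of members, in 62.8% of the narrower class and in 5.90% of Myog-high cells. After thinning to 5000 UMIs per cell the shares were 12.0%, 40.9% and 1.98%, in the same order. A single member held 12.6% of the Msc UMIs of the class. Endothelial and neural cells had a Msc UMI in 1.43% and 0.570% of cells.

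Genes known from several tissues stood beside Msc among the 15 lowest against the narrower class. Foxc1, a transcription factor of somite mesenchyme, stood at 9.74 against 30.2 UPM (log2 ratio -1.63). Fzd1, a Wnt receptor, stood at 7.75 against 17.7 UPM (-1.19), Cxcl12, a chemokine, at 11.7 against 27.6 UPM (-1.24), and Moxd1, which marks neural crest and mesenchyme, at 33.2 against 85.5 UPM (-1.36). Pax1, a sclerotome gene, was at 4.18 against 25.01 UPM, but a single cell held 38.1% of its UMIs in members and 38.4% in the comparator. Arhgef26, Sdpr, Egr1, Gadd45b and Stc1 lay between -1.57 and -1.12.

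Against Myog-high cells, members were higher in genes of the progenitor state. Lmo3, a LIM domain protein, had the highest ratio at 33.6 against 2.61 UPM (log2 ratio 3.69) and was found in 38.7% of members and 4.21% of Myog-high cells. Pax3 stood at 112 against 12.8 UPM (3.14) and was found in 63.2% against 12.1% of cells. Met, the receptor of hepatocyte growth factor and a target of Pax3, stood at 16.5 against 2.74 UPM (2.59). Hey1, a repressor switched on by Notch, stood at 60.4 against 8.23 UPM (2.88) and was found in 53.9% against 10.96% of cells.

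Matrix and secreted proteins made up much of the rest of the 15 highest. Efemp1 (67.0 against 7.41 UPM), Postn (111 against 13.3), Fap (69.2 against 10.0), Serpinf1 (60.0 against 9.47), Thbs1 (34.6 against 5.49) and Plat (27.6 against 4.53) were each over 6-fold higher. Postn is also at 194 UPM in the neural cells of this library, so its UMIs are not particular to muscle. The inhibitors of growth factors Chrdl1 and Grem1 and the Wnt inhibitor Nkd2 had log2 ratios of 2.98, 2.78 and 2.90. Cntfr, the receptor of a neurotrophic cytokine, had 3.05 and Hpgd, which degrades prostaglandins, 2.52.

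Genes of the contractile apparatus were among the 15 lowest against Myog-high cells. Unc45b, a chaperone of myosin, had 1 UMI in members and 1223 in Myog-high cells (log2 ratio -9.72, interval -15.03 to -7.24), and Tcap, a protein of the Z-disc, had 1 and 1152. Myh3, embryonic myosin, stood at 1.79 against 1186 UPM (-9.37). Myl4 (4.77 against 1739 UPM), Tnnc1 (6.96 against 2085 UPM) and Mylpf (24.3 against 7188 UPM) held more UMIs in members, with log2 ratios of -8.51 to -8.21. Myh7, Mybph, Sln, Trdn and Mb, with Atcayos, Prr32, 2310002L09Rik and Sept4, completed the list at -9.28 to -8.11. Atcayos is an antisense transcript, and its reads may not be told apart from those of its partner gene.

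Levels along the way from Pax7 to Myog were followed in 6 classes of increasing Myod1 and Myog. These were the 333 Pax7 cells, 210 cells with 1 Myod1 UMI, 150 members with no Myog UMI, 119 members with 1 to 4, 102 cells with at least 2 Myod1 and 5 to 19 Myog UMIs, and the 356 Myog-high cells. The classes follow the rule genes and are no measure of time. Msc stood at 133, 77.5, 52.2, 21.7, 28.3 and 7.41 UPM in these classes. Pax3 stayed between 92.0 and 130 UPM through the members (129, 115.4, 130 and 92.0), and was at 55.6 and 12.8 UPM in the last classes. Hey1 stood at 78.0, 67.7, 57.8, 63.4, 37.8 and 8.23 UPM. Msc thus differed already between the first classes. Hey1 differed less there, with a log2 ratio of members of -0.37 to all Pax7 cells and -0.72 to the narrower class. Pax3 and Hey1 were both lowest in the classes with 5 or more Myog UMIs. The first class required a Pax7 UMI and had no limit on Myog, Acta1 or Sox2. The second did not require Pax7, so these classes differ in more than Myod1. Which of these differences goes with Msc or Hey1 was not tested.

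**Figure D3:**
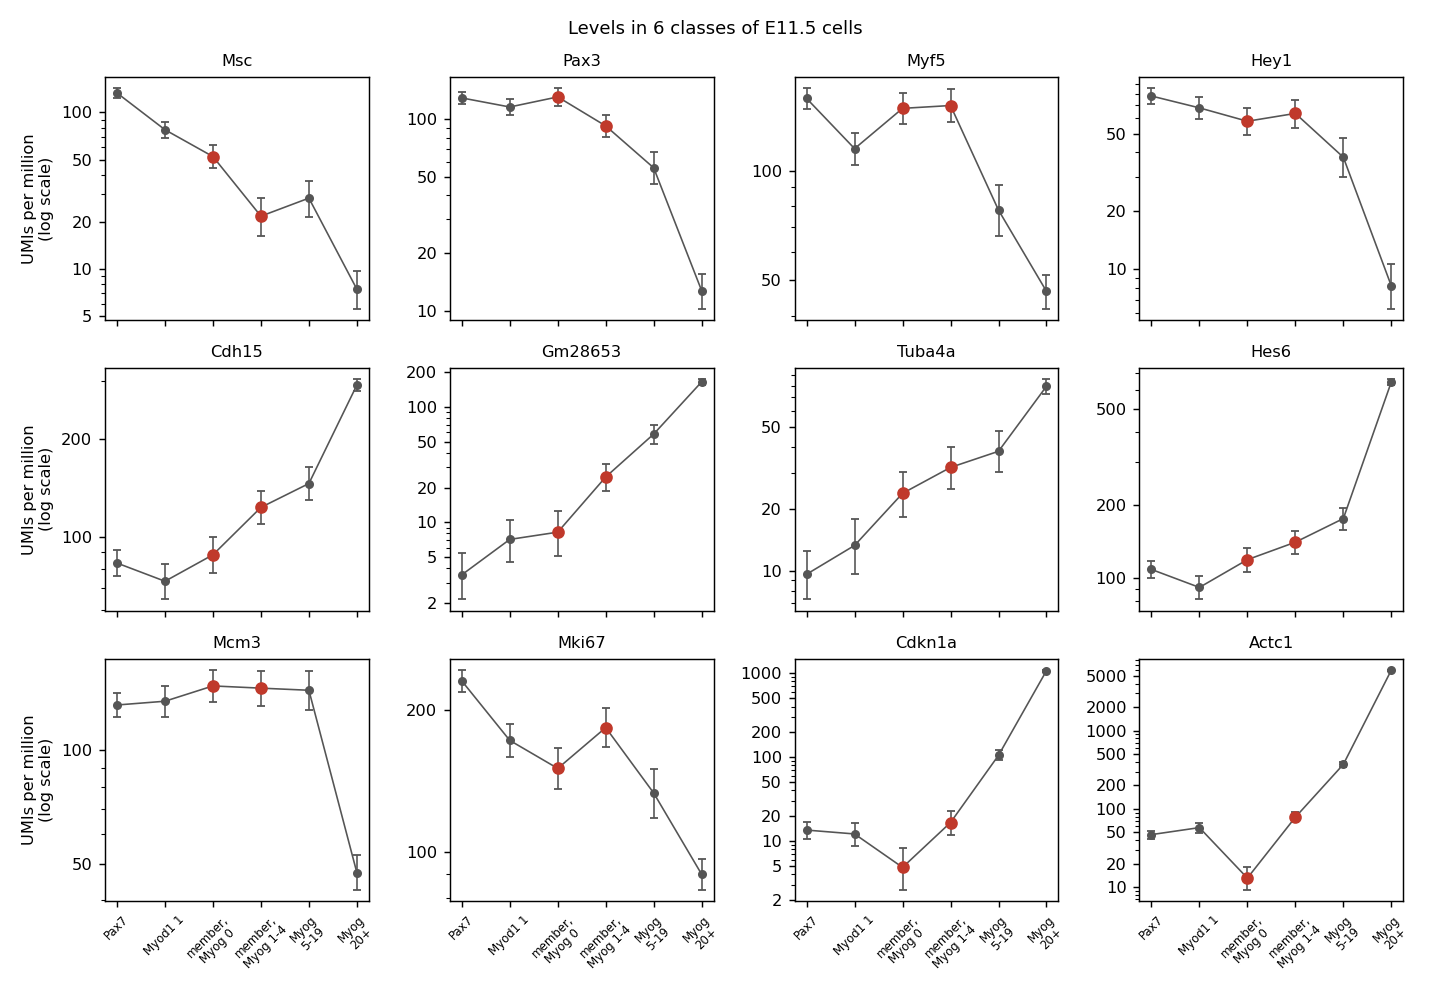
Levels of 12 genes in UPM (vertical axis, log scale) in 6 classes of E11.5 cells ordered by Myod1 and Myog UMIs (horizontal axis), with exact 95% Poisson intervals and members in red. Msc is lower in each class up to the members with Myog UMIs, Gm28653 and Tuba4a are higher from class to class, and Cdkn1a and Actc1 lie above 100 UPM only in the 2 classes with at least 5 Myog UMIs.

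Actc1 and Cdkn1a were lower in members without Myog UMIs than in those with them. Actc1, cardiac actin and an early sarcomere gene of embryonic muscle, stood at 13.1 UPM in the members without Myog, 78.3 in those with 1 to 4 Myog UMIs, 371 in the next class and 5952 in Myog-high cells. Cdkn1a, an inhibitor of cyclin-dependent kinases, was at 4.85, 16.6, 105 and 1069 UPM. Pax7 cells without Myod1 held more of both than the members without Myog, at 46.96 UPM of Actc1 and 13.5 of Cdkn1a, and the highest single Pax7 cell held 27.2% and 18.2% of these UMIs. That class has no upper limit on Myog, and 1 of its cells is also Myog-high.

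Gm28653 had the values 3.50, 7.10, 8.21, 24.7, 58.1 and 165 UPM, found in 3.90%, 6.67%, 9.33%, 21.8%, 52.0% and 85.7% of cells. Its excess over Pax7 cells was larger in members with Myog UMIs. Tuba4a was at 9.64, 13.3, 23.9, 31.9, 38.3 and 79.3 UPM, with a higher level already in members without Myog. Ccdc141 was at 8.94 UPM in Pax7 cells, 22.1 in members with Myog UMIs and 151 in Myog-high cells. Adcyap1 and Zfp703 had another shape: Adcyap1 was at 30.2 UPM in members with Myog UMIs and at 6.31 UPM in Myog-high cells, and Zfp703 at 61.6 UPM in members without Myog and at 27.4 UPM in Myog-high cells. The log2 ratios of all members to Myog-high cells were 2.01 for Adcyap1 and 0.98 for Zfp703. The level of both was thus above that of all Pax7 cells and of Myog-high cells. Against the narrower Pax7 class Zfp703 had a log2 ratio of 1.16 and Adcyap1 was under 2-fold.

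Members held as many transcripts of the S phase, in which DNA is copied, as Pax7 cells. The 26 S phase genes summed to 3549 UPM in members (interval 3497 to 3601), 3253 in Pax7 cells and 1457 in Myog-high cells. All 26 were within 2-fold of Pax7 cells, with a median log2 ratio of 0.10 against -0.07 over all genes. Against Myog-high cells 23 of 26 were at least 2-fold higher, where 7.45% of all genes were, with a median of 1.29 against 0.13 over all genes. Ung, which removes uracil from DNA, was at 48.3 and 11.4 UPM (log2 ratio 2.08), Cdc6, which licenses origins, at 35.2 and 10.2 UPM (1.79), and the helicase subunit Mcm3 at 148 and 47.3 UPM (1.64). Mcm2 (0.92), Rfc2 (0.86) and Uhrf1 (0.79) were the 3 under the line. Against the narrower Pax7 class the S phase sum had a log2 ratio of 0.11 and the G2 and M sum -0.24.

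Transcripts of G2 and mitosis were somewhat fewer in members than in Pax7 cells. The 25 genes summed to 3822 UPM in members, 4439 in Pax7 cells and 2249 in Myog-high cells, which are log2 ratios of -0.22 (interval -0.24 to -0.19) and 0.77 (0.74 to 0.80). None of the 25 was 2-fold apart from Pax7 cells. Mki67, the Ki-67 antigen of dividing cells, stood at 166 UPM in members, 231 in Pax7 cells and 89.9 in Myog-high cells, and was found in 62.8% of members. Against Myog-high cells Ttk (1.41), Kif20b (1.11), Kif11 (1.03) and Nuf2 (1.03), all needed for the spindle or its checkpoint, were over 2-fold higher. The share of all genes at least 2-fold higher there was 7.45%.

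The lists were also counted per cell after thinning each cell to 5000 UMIs, which left 266 members, 325 Pax7 cells and 354 Myog-high cells. The median number of S phase UMIs was 16 in members, 14 in Pax7 cells and 3 in Myog-high cells, and 0 members but 39 Myog-high cells (11.02%) had none. For the G2 and M genes the medians were 11, 15 and 1, with none in 17 members (6.39%), 25 Pax7 cells (7.69%) and 120 Myog-high cells (33.9%). Cells with 5 to 19 Myog UMIs had medians of 17 and 13, like the members and unlike the Myog-high cells. No phase was called for single cells.

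**Figure D4:**
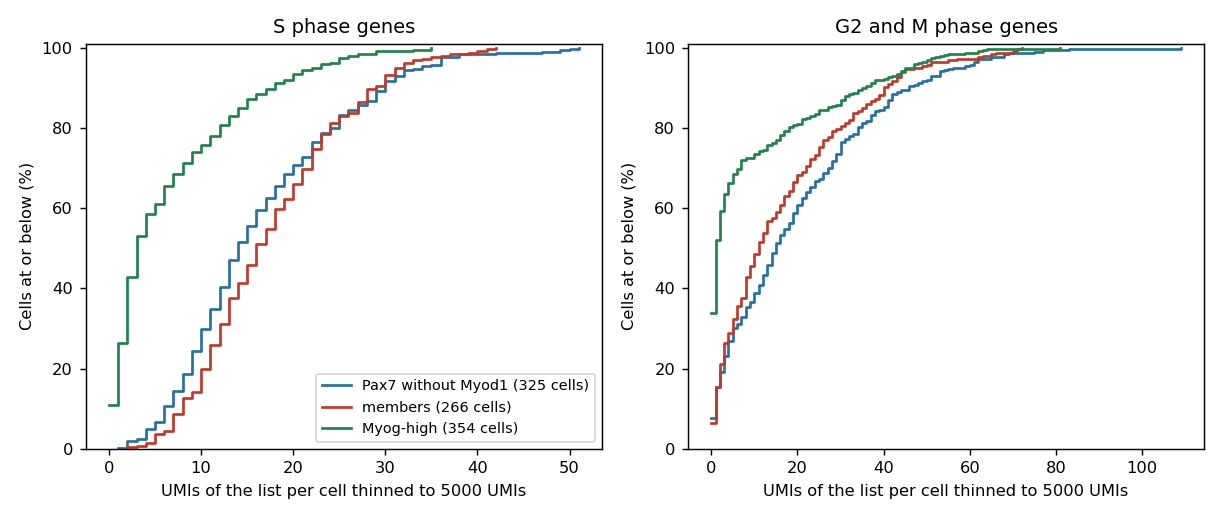
Cumulative share of cells (vertical axis, percent) by the number of UMIs of the S phase list (left) and of the G2 and M list (right) per cell thinned to 5000 UMIs (horizontal axis). Members (red) run close to Pax7 cells (blue) with a median of 16 S phase UMIs, and Myog-high cells (green) are shifted left with a median of 3.

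Genes of cell cycle exit were at a low level in members with 1 large exception. Of 13 compared with Myog-high cells, 7 were at least 2-fold lower, against 9.63% of all genes: Cdkn1a (10.3 against 1069 UPM, log2 ratio -6.69), Rb1 (-3.82), Gadd45g (-3.04), Gadd45a (-2.50), Btg2 (-2.07), Btg1 (-2.02) and Cdkn1c (-1.49). The exception was Cdkn1c, the inhibitor p57, which was found in all 269 members at 3699.8 UPM, beside 10391 UPM in Myog-high cells and 3308 UPM in Pax7 cells. Cdkn1c was also found in 98.6% of endothelial and 86.9% of neural cells. None of the 12 compared with Pax7 cells was 2-fold apart. The ratios of Cdkn1a and Gadd45g to Pax7 cells depended on the setting. That of Cdkn1a had a log2 value of -0.38 over summed UMIs, 0.76 as a mean over cells, 0.95 after thinning and -1.48 for members without Myog. That of Gadd45g was -0.024 over summed UMIs, -0.95 after thinning and 1.72 against the narrower class.

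The G1 cyclins and Myc were within 2-fold of the Pax7 level where they could be compared. Few genes were not, with 0.124% of all genes at least 2-fold higher and 1.04% lower. All 10 genes compared with Pax7 cells were within 2-fold, Myc being the furthest at 70.4 against 40.5 UPM (log2 ratio 0.80). Against Myog-high cells 4 of 11 were at least 2-fold higher, where 7.45% of all genes were. These were Myc (2.22), Ccnd2 (1.63), Ccnd1 (1.44) and Cdk6 (1.28). Ccnd3, the D cyclin of muscle differentiation, was at 375 UPM in members and 384 in Myog-high cells.

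Muscle regulators other than the rule genes were mostly within 2-fold of the Pax7 level. Of 18 compared with Pax7 cells, 16 were within 2-fold and Msc and Dach1 (log2 ratio -1.16) were lower. At least 2-fold lower were 1.04% of all genes, so this list was not nearer to Pax7 cells than genes in general. Against the narrower class 2 of 15 were lower, Msc among them. Myf5 stood at 150 UPM in members, 158 in Pax7 cells and 46.7 in Myog-high cells. Myf6, a late sister factor of Myod1, was found in 5.20% of members, 12.9% of Pax7 cells and 32.0% of Myog-high cells, with too few UMIs for the Pax7 comparison. In the narrower Pax7 class it was found in 22.4% of cells. After thinning, the share was 7.73% in that class and 1.88% in members. Against Myog-high cells 8 of 21 were lower, where 9.63% of all genes were. Among them were Mef2c (18.5 against 862 UPM, -5.54), a cofactor of Myog, Myf6 (3.58 against 52.1 UPM, -3.87), Rxrg (12.5 against 112 UPM, -3.17) and Mef2a (-2.57). Msc (2.36), Eya1 (2.08) and Myf5 (1.68) were higher, where 7.45% of all genes were.

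Among the inhibitors of helix-loop-helix factors Msc alone was 2-fold below Pax7 cells, in 12 compared, where 1.04% of all genes were. Against the narrower class 2 of 12 were. Id3, which binds the partners of Myod1, stood at 434 UPM in members, 567 in Pax7 cells and 298 in Myog-high cells. Id2 was at 220, 165 and 74.1 UPM, and Twist1 at 183, 182 and 57.2 UPM. Against Myog-high cells Hey1, Msc, Twist1 (1.68), Id2 (1.57) and Hes1 (1.20) were higher and Snai1 (-1.95) and Zeb1 (-1.32) lower. The background was 7.45% of all genes at least 2-fold higher and 9.63% lower.

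The Notch pathway is known to keep muscle progenitors from differentiating, and its receptors and targets remained detectable in members. Notch3 stood at 61.6 UPM in members, 71.8 in Pax7 cells and 26.3 in Myog-high cells. Heyl, a Notch target of muscle progenitors, was at 19.5 UPM in members, 47.1 in the narrower Pax7 class (log2 ratio -1.27) and 17.0 in Myog-high cells. Notch1 was at 14.5 UPM in members and 48.9 in Pax7 cells, but 25.3 in the narrower class (-0.80). The ligand Dll1 was at 12.3 UPM in members, 11.2 in all Pax7 cells (0.14, and -0.13 after thinning), 2.33 in the narrower class and 47.9 in Myog-high cells, with too few UMIs in the narrower comparison to pass the minimum. Hes6, which opposes Hes1, was at 129 UPM in members and 644 in Myog-high cells (-2.32). Of 10 receptors and modifiers compared with Pax7 cells Notch1 was 2-fold lower, and of 7 targets Hes5 and Nrarp were. Hes5 and Nrarp stand above among genes known from neural cells, and 12.6% of these Pax7 cells held a Sox2 UMI. Against the narrower class 0 of 8 receptors and modifiers and 1 of 4 targets were lower. Against Myog-high cells 1 of 9 receptors and modifiers was higher and 4 lower, and 2 of 4 targets were higher and 1 lower. Of all genes 7.45% were at least 2-fold higher there and 9.63% lower. Both ligands compared with Myog-high cells, Dll1 (-1.96) and Dlk1 (-1.87), were lower in members.

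Genes of fusion, excitation and the synapse were low. Mymk, the fusogen myomaker, stood at 10.3 UPM in members, 7.18 in Pax7 cells and 345 in Myog-high cells (log2 ratio to the last -5.06), and was found in 15.6% of members and in 0 of 70 endothelial cells. Mymx, myomixer, stood at 3.38 against 574 UPM (-7.41) and was found in 4.83% of members. None of the 3 fusion, 3 calcium and 4 synapse genes with enough UMIs was 2-fold apart from Pax7 cells. Of 9 fusion genes compared with Myog-high cells 6 were lower and Adgrb3 (2.25) and Dock1 (1.17) higher. Of 15 calcium and excitation genes 14 were lower, and of 8 genes of the acetylcholine receptor and synapse 7 were. The shares of all genes against Myog-high cells were 9.63% at least 2-fold lower and 7.45% higher.

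Sarcomere genes were at least 2-fold lower than in Myog-high cells in 30 of 31 cases, against 9.63% of all genes. Their median log2 ratio was -6.68. The exception was Tpm1 (-0.92). Some were at a high level in members all the same, though only Tnnt1 is set against a background here. Tpm1 stood at 1169 UPM, Tnnt1, slow troponin T, at 797 UPM and Tpm2 at 311 UPM. A Tnnt1 UMI was found in 98.0% of members without Myog and in 100% of those with 1 to 4 Myog UMIs, against 27.1% of endothelial and 10.3% of neural cells. Pax7 cells had 606 UPM of Tnnt1, found in 78.1%, and the narrower class 799 UPM, found in 99.5%, both without a Myod1 UMI. Among 12 sarcomere genes compared with Pax7 cells only Myl1 was 2-fold higher, where 0.124% of all genes were. Des, desmin, was at 89.5 UPM in members and 72.0 in Pax7 cells.

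Adhesion, matrix and signalling genes were nearer to Pax7 cells than to Myog-high cells, as genes were in general. Of all genes compared, 0.124% were at least 2-fold higher and 1.04% lower than in Pax7 cells. The shares against Myog-high cells were 7.45% and 9.63%. None of 21 adhesion genes, 18 matrix genes and 20 growth factor genes was 2-fold apart from Pax7 cells. In the Wnt and hedgehog list 2 of 16 genes were lower, Fzd1 (-1.38) and Ptch1 (-1.11). Against the narrower Pax7 class 1 of 14 was, Fzd1 (-1.19). Against Myog-high cells 10 of 24 adhesion genes were lower, such as Jam3 (62.2 against 282 UPM), Ncam1 (142 against 289 UPM) and Lrrn1 (89.7 against 267 UPM), and Boc (2.13), Cdh2 (1.45) and Pcdh7 (1.33) were higher. Of 16 matrix genes 8 were higher, led by Postn, Col1a1 (71.2 against 16.2 UPM) and Tnc (22.3 against 5.21 UPM). In the growth factor list Met, Pdgfra (1.69) and Spry1 (1.02) were higher and the secreted regulators Fst (9.54 against 76.2 UPM) and Mstn (-2.96), with Spry4 (-1.48) and Igf2r (-1.38), were lower. Of 16 Wnt and hedgehog genes 6 were higher and 1 lower. None of 13 RNA-binding factors was 2-fold apart from Pax7 cells, and against Myog-high cells 5 of 14 RNA-binding factors were lower, led by Rbm24 (28.6 against 419 UPM, -3.87), and Mbnl3 (1.80) was higher.

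Progenitor genes were mostly within 2-fold of the Pax7 level in members. Of 20 compared with Pax7 cells 19 were within 2-fold, and Notch1 (-1.75) was lower. Nearness to Pax7 cells was not particular to this list, since 0.124% of all genes were at least 2-fold higher and 1.04% lower. Against the narrower class 0 of 19 were lower and 1 was higher. Meox1, a homeobox gene of early somites, stood at 110 UPM in members, 82.0 in Pax7 cells and 25.5 in Myog-high cells. Dmrt2, a gene of the dermomyotome, was at 49.5, 30.3 and 9.61 UPM, and Tcf15 at 149, 144 and 35.1 UPM. Itm2a, a membrane protein downstream of Pax3, was at 2732, 1926 and 1904 UPM. Against Myog-high cells 8 of 20 progenitor genes were at least 2-fold higher and 2, Itga6 (-1.10) and Notch1 (-1.003), at least 2-fold lower, where 7.45% and 9.63% of all genes were.

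Members varied in which upstream factors they held. A Pax3 UMI was found in 63.2%, a Myf5 UMI in 61.7% and a Pax7 UMI in 54.6%, and in thinned cells these shares were 32.0%, 44.0% and 27.1%. In endothelial cells the shares were 5.71%, 1.43% and 1.43%, while 49.0% of neural cells held Pax3, a gene of the dorsal neural tube. All 3 genes were found together in 50 members (18.6%, interval 14.1 to 23.8), and none of them in 14 (5.20%). The remaining combinations held 19 to 50 cells each. Detection depends on depth: the 14 members with none had a median of 13460.5 UMIs and the 50 with all 3 had 19385.5. Lbx1, a gene of muscle precursors that migrate to the limbs, was found in 10 members (3.72%, interval 1.80 to 6.73) and in 1.71% of neural cells, with an interval of 0.630 to 3.68 that overlaps.

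**Figure D5:**
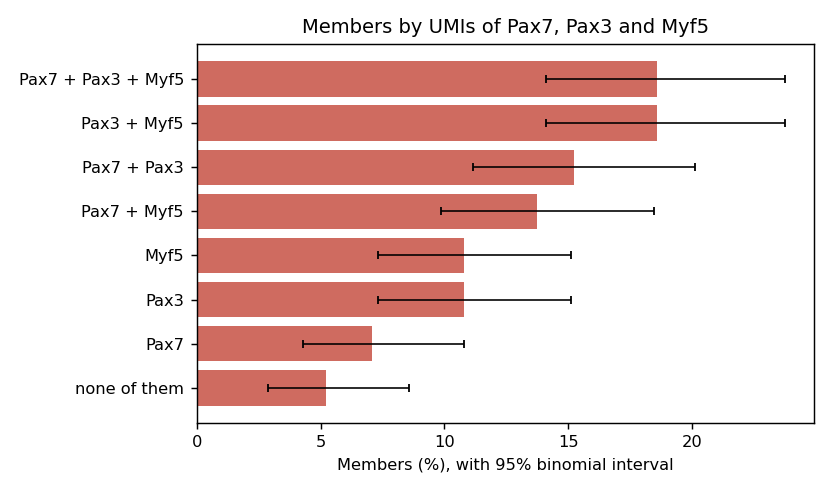
Share of the 269 members (horizontal axis, percent, with exact binomial intervals) by which of Pax7, Pax3 and Myf5 had at least 1 UMI in the cell. No combination holds over 18.6% of members, and 5.20% hold none of the 3 genes.

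Members with a Pax3 UMI (170 cells, median 17693.5 UMIs) differed from those without (99 cells, median 15631) in genes of both directions. Adcyap1 stood at 10.1 UPM with Pax3 and 56.1 without (log2 ratio -2.47, interval -3.08 to -1.89), Actc1 at 25.3 and 80.0 UPM (-1.66), Des at 65.3 and 138 UPM (-1.08) and Gm28653 at 9.84 and 28.1 UPM (-1.51). Msc was at 47.7 and 18.5 UPM (1.37), Met at 21.2 and 7.17 UPM (1.56) and Hoxa10 at 26.2 and 8.96 UPM (1.55). These genes were picked from the lists for their size, after their values were seen.

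Members with a Myf5 UMI (166 cells) held a higher level of 3 Hox genes than the 103 without. Hoxc9 was at 112 UPM with Myf5 and 55.1 without (1.02), Hoxa9 at 43.5 and 20.7 UPM (1.07) and Hoxa10 at 25.8 and 10.3 UPM (1.32), while Hoxc10 (0.79), Hoxa7 (0.10) and Hoxc8 (-0.13) were within 2-fold. Postn (79.1 and 172 UPM, -1.12), Sim1 (13.4 and 32.7 UPM, -1.29) and Mylpf (14.6 and 42.5 UPM, -1.54) were lower with Myf5. By Pax7, Actc1 was at 30.1 UPM in members with a Pax7 UMI and 60.8 UPM in those without (-1.02), and Chrnb1, a subunit of the acetylcholine receptor, at 17.0 and 5.45 UPM (1.64). These genes too were chosen after their values were seen, and position along the body was not recorded.

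Markers of other tissues were few in members, with some single cells apart. The 10 neuron markers summed to 110 UPM in members, 216 in Pax7 cells and 103 in Myog-high cells, and 1 member held 25.5% of them. For Stmn2, a neuron gene, 1 cell held 74.6% of the UMIs of members with Myog UMIs. The 9 endothelial markers summed to 25.8 UPM in members, 18.9 in Pax7 cells and 6.45 in Myog-high cells, and 1 member held 46.2% of them. White blood cell markers had 5 UMIs in all members, with 6 of 8 genes at 0. Markers of sclerotome and cartilage stood at 108 UPM in members, 216 in Pax7 cells and 73.6 in Myog-high cells, those of dermal and lateral mesenchyme at 134, 209 and 75.8 UPM, of tendon at 50.1, 77.1 and 56.5 UPM, of neural crest at 62.2, 103 and 98.5 UPM, and of epithelium at 12.1, 25.8 and 9.47 UPM. Those of red blood cells stood at 58.3, 916 and 905 UPM, and a single cell held 93.8% of these UMIs in Pax7 cells and 94.2% in Myog-high cells. The part of cells of other tissues in the ratios was not tested beyond these values.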

How the data were processed

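The authors dissociated inter-limb somites of 3 pooled embryos per stage and made 1 droplet library each at E9.5 and E11.5. According to the submitters' processing notes Cell Ranger 3.0.1 aligned reads to mm10, and the authors deposited raw UMI counts per gene and barcode without normalization. Cells with 200 to 6499 genes and under 15% mitochondrial UMIs were kept, as in the paper, which removed 572 E11.5 and 270 E9.5 barcodes.

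The deposited UMI counts of each class were added up per gene and scaled to the total of that class. For these sums and shares, exact 95% Poisson, ratio and binomial intervals were computed with scipy 1.17.1, numpy 2.4.6 and pandas 2.3.3 under Python 3.11.15, and figures with matplotlib 3.10.9. Genes needed 100 UMIs in both classes together, and a count of 0 was set to 3 counts. Cells were thinned at random to 5000 UMIs (seed 1), leaving out 3 members. Doublets were called with Scrublet in scanpy 1.11.5 at an expected rate of 8%, chosen because the default rate called no cell, and removed only in an alternative. Counts were also simulated by Poisson draws around the class sums, the model that the intervals assume. For 8072 genes of the Pax7 comparison 95.7% of the intervals held the true ratio, and for 8412 of the Myog-high comparison 95.5%. These shares check the computation only, since spread between cells was not simulated.

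All 452 list genes were found, 3 of them (Mymk, Mymx and Cnmd) by Ensembl ID. Named genes are those of the lists, the 15 with the highest and the 15 with the lowest ratio per comparison without the 5 rule genes, and genes said to be chosen later. The narrower Pax7 comparison was added, and its genes were named, after values were seen. A planned comparator and some genes of the lists are not reported here. The members and lists were chosen with earlier results of these data known. Gene positions are from GENCODE M21 on GRCm38, and miRNAs and promoters from RefSeq tables for GRCm38.p6. The other analyses of the paper were not repeated. Alternatives changed depth per cell, weight of cells, doublets, thresholds, comparators, scaling, the cell filter and the UMI minimum.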

Additional observations from a re-analysis of the deposited data

Results flagged for a closer look

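In the E9.5 library, which enters no comparison here, Myod1 was not at 0. The kept cells held 14 Myod1 UMIs in 9 of 9851 cells, above the limit that a count of 0 allows, although none of them met the rule for members.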

How the results depend on the processing

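No paired analysis was possible because each stage has 1 library and no result comes from a test. All values rest on 1 library of pooled embryos, so the spread between embryos is unknown. Ratios were followed only for some chosen genes and for the S phase and G2 and M sums. Of these, no log2 ratio that was past 2-fold as reported changed sign. Against Pax7 cells only Gm28653, Tuba4a and Msc were both followed and past 2-fold, so the other named genes are not covered. Among ratios within 2-fold as reported, that of Gadd45g to Pax7 cells (-0.024) was 1.72 against the narrower class, and that of Cdkn1a (-0.38) was 0.95 after thinning and -1.48 with no Myog. The number of members was 479 with 1 Myod1 UMI allowed, 176 with at least 3 required and 150 with no Myog. Genes at least 2-fold higher than in Pax7 cells, 10 as reported, were 2 after thinning, 18 as a mean over cells, 17 with 1 Myod1 UMI allowed, 45 at a minimum of 30 UMIs and 2 at 300. Genes lower, 84 as reported, were 19 after thinning, 24 against the narrower class (chosen after the data were seen), 295 at 30 UMIs and 16 at 300. Against Myog-high cells the higher genes were 262 after thinning, 1072 at 30 UMIs and 264 at 300, and the lower genes 373 after thinning and 441 at 300. The S phase log2 ratio to Pax7 cells was 0.088 after thinning, 0.064 with 1 Myod1 UMI allowed and 0.18 with no Myog, and that of G2 and M was -0.26 after thinning, -0.29 as a mean over cells, -0.26 without Scrublet calls and -0.33 with no Myog. The S phase ratio to Myog-high cells was 1.42 after thinning, 1.43 as a mean over cells, 1.36 without Scrublet calls, 1.22 with 1 Myod1 UMI allowed, 1.34 with no Myog, and 1.09 and 1.48 with 10 and 50 Myog UMIs required of the comparator. That of G2 and M was 0.81 after thinning and without Scrublet calls, 0.83 as a mean over cells, 0.65 with no Myog and 0.64 with 10 Myog UMIs. Thinned shares of members were 39.1% for Cdh15, 27.1% for Pax7, 32.0% for Pax3 and 44.0% for Myf5. The cause of these moves was not tested beyond the fewer cells, genes or UMIs that each setting leaves. For the other 54 values of these results, counts of cells or genes stayed within a fixed fold limit, which is not a counting interval. Ratios among them stayed within the counting interval of the reported value, as did 179 values of single genes. Another 68 values of single genes moved by more than that interval.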

Other observations

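The axial Hox genes of members were close to those of Pax7 muscle cells. Of 13 compared with all Pax7 cells 3 were at least 2-fold lower, where 1.04% of all genes were. Of 10 compared with the narrower Pax7 class none was 2-fold apart, with summed levels of 719 and 759 UPM. Outside that list Hoxd4 (log2 ratio -1.07) and Hoxb4 (-1.01) were lower than in the narrower class. Against Myog-high cells 7 of 12 were higher and 1 lower, where 7.45% and 9.63% of all genes were. The sum in Myog-high cells was 374 UPM. Members with and without Myog UMIs differed in Hoxc5, which stood at 20.4 and 48.1 UPM (log2 ratio -1.24, interval -1.75 to -0.75). Dkk2, a Wnt inhibitor, stood at 5.53 UPM in members with 1 to 4 Myog UMIs and 27.2 UPM in members without (-2.30), and Prrx1, a gene of mesenchyme, at 38.7 and 79.8 UPM (-1.04). Members with a Cdh15 UMI held 18.8 UPM of Gm28653 and those without held 4.07 UPM. These genes were chosen after their values were seen.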
